A study of Mus musculus with 6 samples.

Results

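The results below describe 9 transcription factors of the naive and central T cell state in mouse regulatory T cells (Treg) with floxed or unaltered Bach2. The factors are Tcf7, Lef1, Satb1, Foxp1, Foxo1, Foxo3, Id3, Klf3 and Myb. They were found by symbol among the 36811 gene rows of the expression table, and each of the 9 matched 1 row. Expression was measured by RNA sequencing in 6 libraries of Treg sorted from the spleen of C57BL/6 mice aged 18 to 21 weeks. The 3 libraries labelled cKO came from mice of genotype Bach2fl/fl Foxp3EGFP-Cre-ERT2, and the 3 labelled WT from mice of genotype Bach2+/+ Foxp3EGFP-Cre-ERT2. Both groups therefore carried EGFP and the Cre-ERT2 recombinase at Foxp3, the gene of the factor that defines Treg. Cre-ERT2 acts only after tamoxifen, and the treatment is not given in the sources used here. Whether the libraries of a group came from different mice is not stated, and the spread behind each p-value may therefore be technical.

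A resting T cell keeps its state through factors that hold open the naive programme and hold back effector genes. TCF1 (the product of Tcf7) and LEF1 are HMG-box factors of T cell development and of central memory. FOXO1 and FOXO3 drive homing receptors and survival genes until kinases downstream of the T cell receptor move them out of the nucleus. Bach2 is a transcriptional repressor that limits effector differentiation of T cells. The comparison sets Treg of floxed against unaltered Bach2 genotype, and loss of Bach2 is not established here. Effector Treg are known to carry less of several of these factors than resting Treg.

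Values are FPKM, fragment numbers divided by transcript length and library size, which allows levels of different genes to be set side by side. Group differences are cKO minus WT on the log2(FPKM + 1) scale, which understates changes of low genes, and were tested with limma over the 11979 genes whose mean reached 1 FPKM. By the steps between low FPKM values the libraries correspond to about 3040000 to 5010000 fragments. The sum of FPKM ran from 1502822 to 1940807 per library, with 32.4% to 46.9% of it in 4 rows. Bach2 itself was no lower under the cKO label, at 7.88, 9.19 and 6.44 FPKM across cKO 1 to 3, with 3.29, 8.25 and 4.80 FPKM across WT 1 to 3. That whole-gene value need not show the deletion of some exons, so the groups are taken as labelled, unchecked by this gene. All 5 Treg markers looked at (Foxp3, Il2ra, Ctla4, Ikzf2 and Tnfrsf18) were detected above the filter, with Foxp3 between 5.16 and 9.44 FPKM. Summed T cell markers stood at 5805 to 6400 FPKM with the cKO label, against 4802 to 5536 FPKM with the WT label. Most of that sum was Trac, at 4611, 4251 and 4624 against 3449, 3916 and 3264 FPKM, and the groups of the other T cell markers overlapped. Summed B cell markers stood at 112 to 154 and 102 to 144 FPKM. Summed erythroid markers, at 129 to 277 against 33.0 to 112 FPKM, and summed myeloid markers, at 232 to 909 against 192 to 320 FPKM, had 3 of 3 and 6 of 7 tested markers with a log2 difference above 0. Summed plasma cell markers stood at 147 to 203 against 129 to 223 FPKM, and summed CD8 T cell markers at 19.6 to 22.4 against 19.2 to 21.0 FPKM. Summed NK cell markers stood at 85.5 to 109 against 62.3 to 85.7 FPKM, with 1 of 2 tested markers above 0 and 1 below. No listed T cell, B cell, erythroid or myeloid marker was at 0 in every library. The part of such cells in the results below was not tested.

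No change between the groups was detected in any of the 9 factors. All 9 passed the filter on low values, and 0 of 9 passed a Benjamini-Hochberg adjusted p of 0.05 in limma, where 0.0250% of all genes tested did. At an unadjusted p under 0.05 the count was also 0 of 9, against 5.37% of all genes. The values of the groups overlapped for all 9 factors, and they did not overlap in 10.7% of all genes. At such shares a count of 0 among only 9 genes does not set the factors apart from other genes. The median log2 difference was -0.08 over the 9 factors and 0.03 over all genes tested, and the 9 values ran from -0.18 for Lef1 and Klf3 to 0.21 for Foxo3. Of the 9, 7 had a value below 0 and 2 above, where 45.0% and 55.0% of all genes tested did. With libraries scaled to equal sums, 2 lay below 0 and 7 above, but that scaling moved the median of all genes to 0.18, and 7 of the 9 lay below that median as before. The count below the median of all genes was 5 with library quality weights, 5 without cKO replicate 1 and 8 without WT replicate 3.

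**Figure D1:**
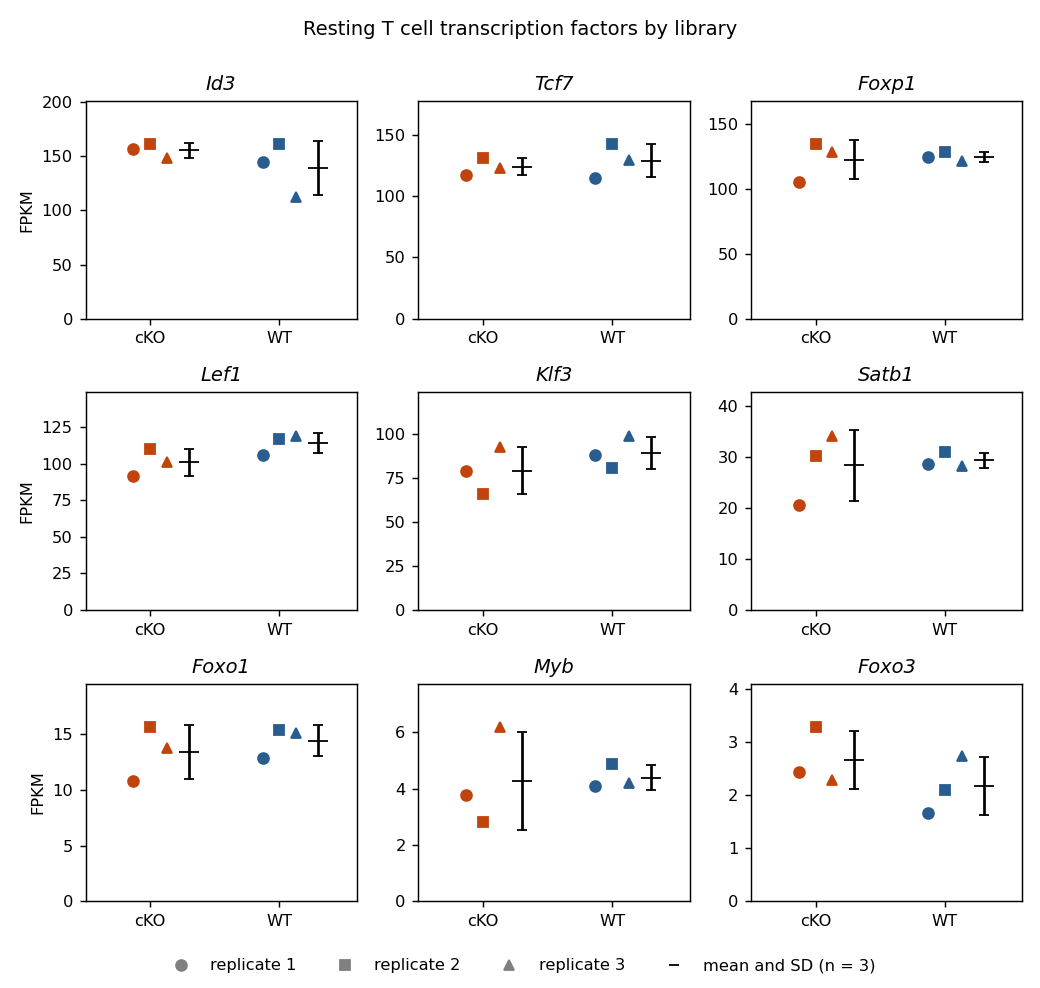
FPKM of each factor in the 3 libraries labelled cKO and the 3 labelled WT, one panel per gene with its own axis from 0; symbols mark the replicate number, which does not pair libraries, and black bars give mean and SD (n = 3). The groups overlap in every panel, from Id3 at 112 to 161 FPKM down to Foxo3 at 1.66 to 3.28 FPKM.

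The HMG-box pair was high and steady. Tcf7 (ENSMUSG00000000782) stood at 117, 131 and 123 FPKM across cKO 1 to 3, with 115, 142 and 129 FPKM across WT 1 to 3. Both the lowest and the highest value were in libraries labelled WT, so the cKO values lie inside the WT range. cKO and WT differed by -0.05 on the log2 scale (SE 0.129, 95% interval from -0.36 to 0.26; limma, adjusted p = 0.977). Tcf7 had the smallest spread of the 9 factors, with a coefficient of variation of 7.82% over the 6 libraries and a highest value 1.23 times the lowest. Lef1 (ENSMUSG00000027985), its close relative, stood at 91.5, 110.0 and 101 FPKM across cKO 1 to 3, with 106, 117 and 119 FPKM across WT 1 to 3. The groups overlapped through cKO 2 and WT 1 alone. For Lef1 the log2 difference was -0.18 (SE 0.126, interval from -0.48 to 0.13; limma, adjusted p = 0.925). Lef1 had the smallest unadjusted p of the 9, 0.209 by limma. Its difference was below 0 in each of the 16 alternatives, from -0.26 to -0.02, and passed in none of them.

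Satb1 and Foxp1 organise the T cell genome and guard quiescence, and both had their lowest value in cKO 1. Satb1 (ENSMUSG00000023927), a chromatin organiser needed for Treg development, stood at 20.6, 30.3 and 34.2 FPKM across cKO 1 to 3. In WT 1 to 3 it stood at 28.7, 31.1 and 28.3 FPKM, inside the range of the libraries labelled cKO. This gave a log2 difference of -0.08 with an interval from -0.56 to 0.41 (limma, adjusted p = 0.979), which was 0.13 without cKO replicate 1. Foxp1 (ENSMUSG00000030067), a forkhead repressor that keeps naive T cells quiescent, stood at 105, 134 and 128 FPKM across cKO 1 to 3. It stood at 124, 128 and 121 FPKM across WT 1 to 3, again inside the cKO range. The log2 difference of -0.03 was the smallest of the 9 in size, with an interval from -0.35 to 0.29 (limma, adjusted p = 0.992), and it was 0.08 without cKO replicate 1. Some exon bases of Foxp1 (300 of 13751) are shared with Gm20696, a gene on the same strand listed at 11.1 to 18.6 FPKM, so a small part of the Foxp1 value is uncertain.

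The FOXO factors differed from each other in level and not detectably between the groups. Foxo1 (ENSMUSG00000044167), which drives homing and survival genes of resting T cells, stood at 10.8, 15.6 and 13.7 FPKM across cKO 1 to 3, with 12.8, 15.3 and 15.1 FPKM across WT 1 to 3. Its lowest and highest values both lay in libraries labelled cKO. Its difference was -0.11 with an interval from -0.55 to 0.33 (limma, adjusted p = 0.965), and it was 0.03 without cKO replicate 1. Foxo3 (ENSMUSG00000048756), its relative with a shared DNA-binding domain, stood at 2.43, 3.28 and 2.28 FPKM across cKO 1 to 3, with 1.66, 2.10 and 2.74 FPKM across WT 1 to 3. WT 3 lay above cKO 1 and cKO 3. This left a difference of 0.21 with an interval from -0.42 to 0.84 (limma, adjusted p = 0.946). Leaving out WT 1 gave 0.09, leaving out cKO 2 gave 0.10, and the highest value, 0.34, came with WT 3 left out. By the estimated depth, no more than about 44 to 110 fragments lay behind each Foxo3 value, counted by its longest coding transcript, which leaves a counting error of at least 9.43% to 15.1%.

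Id3, Klf3 and Myb completed the set. Id3 (ENSMUSG00000007872), an inhibitor that binds E proteins and is kept by resting Treg, was the highest of the 9 by its mean. It stood at 157, 161 and 148 FPKM across cKO 1 to 3, with 145, 161 and 112 FPKM across WT 1 to 3. WT 3 was the one low library, and without it the log2 difference of 0.17 (interval from -0.22 to 0.56; limma, adjusted p = 0.933) was 0.02. It was 0.28 without WT replicate 2 and 0.33 with equal sums. Klf3 (ENSMUSG00000029178), a zinc finger repressor of the Krüppel family, stood at 78.9, 66.1 and 92.5 FPKM across cKO 1 to 3, with 88.2, 80.9 and 99.0 FPKM across WT 1 to 3. cKO 2 was the lowest and WT 3 the highest, and cKO 3 lay above WT 1 and WT 2. Klf3 differed by -0.18 with an interval from -0.57 to 0.21 (limma, adjusted p = 0.930), and when each library was left out in turn the value ran from -0.30 (cKO 3 left out) to -0.06 (cKO 2 left out), and it was -0.03 with equal sums.

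Myb (ENSMUSG00000019982), a factor of progenitors and of central memory cells, was low and the most scattered of the 9. It stood at 3.78, 2.80 and 6.18 FPKM across cKO 1 to 3, with 4.08, 4.88 and 4.21 FPKM across WT 1 to 3. The lowest and the highest library were both labelled cKO, with the highest 2.20 times the lowest, and the libraries labelled WT lay close together between them. The log2 difference was -0.08 with an interval from -0.76 to 0.59 (limma, adjusted p = 0.985), and it ran from -0.33 to 0.12 when each library was left out in turn. By the same estimate, no more than about 50 to 90 fragments lay behind each Myb value.

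How large a change these libraries leave room for can be read from the intervals. For 7 of the 9 factors the 95% interval lay within 1.5-fold in either direction, where 25.2% of all genes tested and 39.8% of those averaging 10 FPKM or more had such an interval. These were Tcf7, Lef1, Satb1, Foxp1, Foxo1, Id3 and Klf3. Of them, Id3, Tcf7, Foxp1, Lef1 and Klf3 averaged 84.3 to 147 FPKM, and neither share is matched for level. Foxo3 and Myb, both with means below 5 FPKM, were not held within 1.5-fold. Within 2-fold lay all 9 intervals, against 66.1% of all genes tested and 80.4% of those averaging 10 FPKM or more. These bounds are on the log2(FPKM + 1) scale, and with a pseudocount of 0.1 the interval of Foxo3 reached 1.15 on the log2 scale, past 2-fold. It also reached past 2-fold with equal sums, with the replicate block, and with cKO 1, cKO 3 or WT 3 left out, where the upper bounds were 1.03, 1.07 and 1.08. The count within 1.5-fold was 4 without the variance trend. When 1 library was left out it was 4 without cKO replicate 2, 3 without cKO replicate 3, 2 without WT replicate 1 and again 3 without the WT library of replicate 2.

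**Figure D2:**
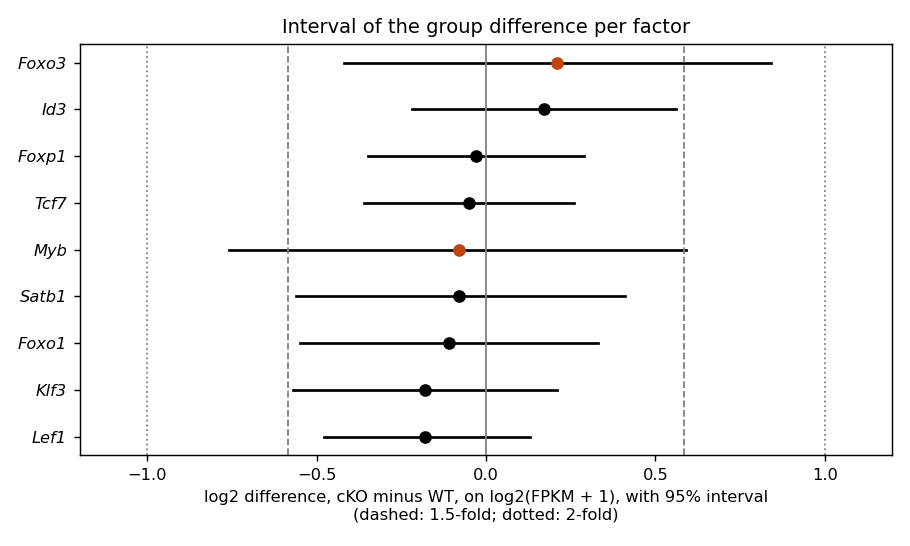
Log2 difference (cKO minus WT, on log2(FPKM + 1)) of each factor with its 95% interval from limma; dashed lines stand at 1.5-fold and dotted lines at 2-fold. Foxo3 and Myb, drawn in orange, cross a dashed line, and no interval reaches a dotted one.

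Levels formed a ladder that was nearly the same in each library. By the mean of the 6 libraries the order was Id3 at 147 FPKM, Tcf7 at 126, Foxp1 at 123, Lef1 at 107, Klf3 at 84.3, Satb1 at 28.9, Foxo1 at 13.9, Myb at 4.32 and Foxo3 at 2.41 FPKM. Id3, Tcf7, Foxp1 and Lef1 could not be fully separated by their ranges. Tcf7 exceeded Foxp1 in 3 of 6 libraries, and Id3 exceeded Tcf7 in 5 of 6. Foxp1 exceeded Lef1 and Lef1 exceeded Klf3 in 6 of 6, with ranges that overlapped. From Klf3 down to Myb the ranges were apart, with steps of 2.92 from Klf3 to Satb1, 2.08 from Satb1 to Foxo1 and 3.21 from Foxo1 to Myb, as ratios of mean FPKM. Myb exceeded Foxo3 in 5 of 6 libraries. Among all genes tested, Id3 was above 91.9% and Tcf7 above 90.6% in mean level, Foxo1 above 49.7% and Foxo3 above 13.8%.

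The SD of log2(FPKM + 1) over the 6 libraries had a median of 0.198 over the 9 factors and 0.306 over all genes tested, and all 9 lay below the latter. Tcf7 at 0.111 had a larger SD than 3.70% of all genes, Foxp1 at 0.122 than 5.32% and Lef1 at 0.139 than 8.20%, while Myb at 0.306 stood at the middle with 49.9%. Higher genes are counted more precisely, and this ranking does not adjust for level. Of the libraries, cKO 1 was lowest for 4 of the 9 factors, Lef1, Satb1, Foxp1 and Foxo1, with Satb1 at -0.45 and Foxo1 at -0.33 from their means on the log2 scale. The mean deviation over the 9 factors was -0.16 in cKO 1, 0.02 in cKO 2, 0.09 in cKO 3, -0.06 in WT 1, 0.08 in WT 2 and 0.03 in WT 3. cKO 2 was highest for 4 factors (Foxp1, Foxo1, Foxo3 and Id3) and lowest for 2 (Klf3 and Myb), so the 9 factors did not move as 1 block. Without cKO replicate 1 the median log2 difference of the 9 was 0.03, with 4 values below 0 and 5 above.

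**Figure D3:**
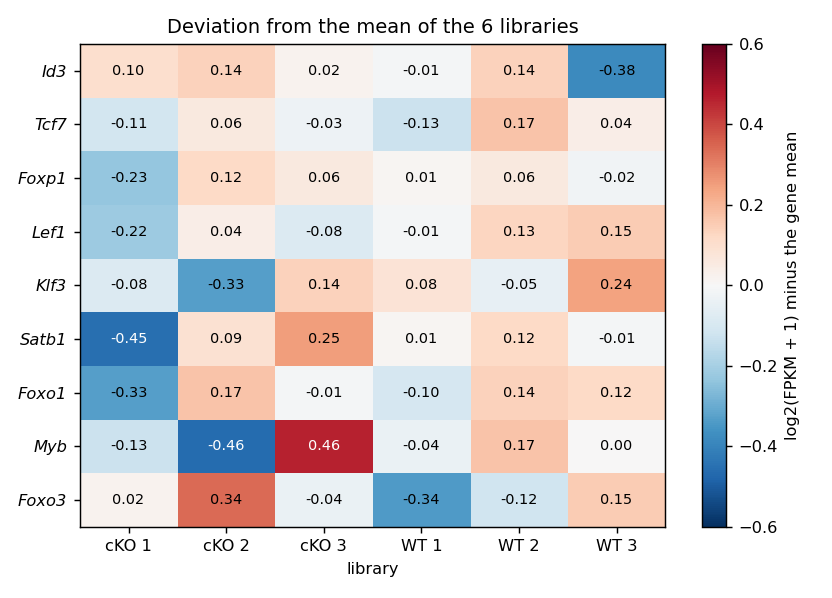
Deviation of log2(FPKM + 1) from the mean of the 6 libraries, by factor (rows, from the highest to the lowest level) and library (columns). Satb1 at -0.45 and Foxo1 at -0.33 are low in cKO 1, Id3 at -0.38 is low in WT 3, and Myb goes from -0.46 in cKO 2 to 0.46 in cKO 3.

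Ratios between related factors within a library do not depend on the scaling of libraries, apart from the added pseudocount. With 3 libraries against 3, a two-sided exact permutation test has 20 splits and cannot go below p = 0.1. The ratio of Id3 to Id2 was the one whose groups did not overlap. Id2, the inhibitor of E proteins that effector Treg use, stood at 119, 143 and 119.7 FPKM across cKO 1 to 3, with 93.9, 89.6 and 84.1 FPKM across WT 1 to 3, a log2 difference of 0.50 (limma, adjusted p = 0.846). The FPKM of Id3 was 1.31, 1.13 and 1.24 times that of Id2 in the libraries labelled cKO and 1.55, 1.80 and 1.33 times in those labelled WT. The log2 ratio differed by -0.33 (exact permutation p = 0.1, the smallest possible, and 0.267 adjusted over the 4 ratios). Over 8 alternatives this difference ran from -0.44 to -0.23. As the groups do not overlap, leaving out a library could not have changed its sign, and the other alternatives changed only the pseudocount. The log2 difference was 0.17 for Id3 and 0.50 for Id2.

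The other ratios overlapped between the groups. Tcf7 was 1.28, 1.19 and 1.22 times Lef1 in cKO 1, 2 and 3 and 1.09, 1.21 and 1.09 times in WT 1, 2 and 3, with a log2 difference of 0.12 (exact permutation p = 0.2, adjusted 0.267). Tcf7 thus exceeded its relative in 6 of 6 libraries. Foxo1 was 4.44, 4.76 and 6.01 times Foxo3 in the libraries labelled cKO and 7.71, 7.26 and 5.49 times under the WT label, a log2 difference of -0.32 (exact permutation p = 0.2, adjusted 0.267). Klf3 was 5.22, 2.84 and 4.56 times Klf2, a relative that controls lymphocyte exit and homing, in the libraries labelled cKO. It was 4.36, 3.50 and 4.65 times Klf2 under the WT label, a log2 difference of -0.03 (exact permutation p = 0.9).

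**Figure D4:**
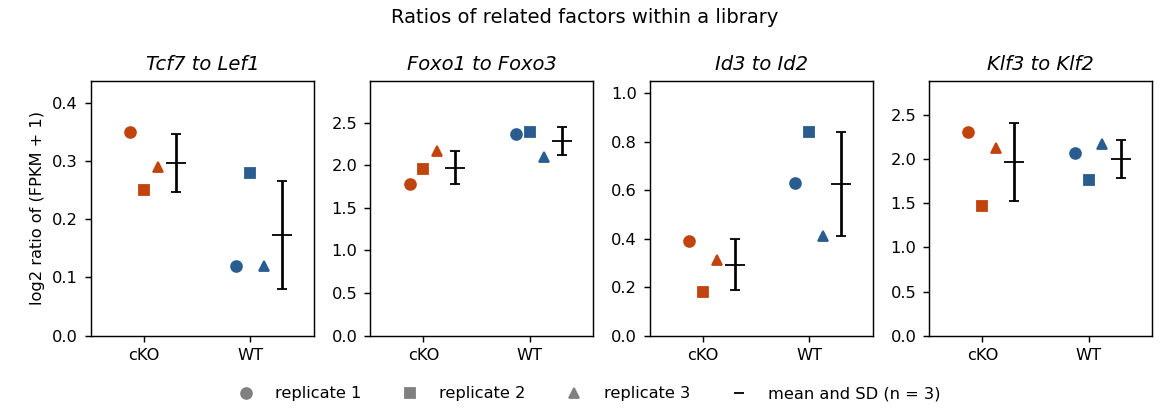
Log2 ratio of (FPKM + 1) of related factors in each library, by group, with mean and SD (n = 3) and symbols for the replicate number. The ratio of Id3 to Id2 lies between 0.18 and 0.39 in the libraries labelled cKO and between 0.41 and 0.84 in those labelled WT, and the other ratios overlap.

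Genes around these factors were read from lists, and 0 of their tested genes passed an adjusted p of 0.05 by limma. Some genes are on more than 1 list, such as Id2 and Klf2. Among the other members of the same families, 10 of 18 were tested. Of these 10, 7 had a value above 0, 2 had an unadjusted p under 0.05 upward (3.59% of all genes did) and none downward, and the median log2 difference was 0.15. The pair were Id2 and Klf10, a TGF-beta-induced factor at 18.6, 15.7 and 20.4 FPKM across cKO 1 to 3, with 11.5, 14.0 and 11.4 FPKM across WT 1 to 3 (log2 difference 0.53; limma, adjusted p = 0.915). Foxo6 and Id4 were listed at 0 in each of the 6 libraries. All 3 E proteins, the partners that Id3 blocks, had values between -0.16 and -0.06 and overlapping groups.

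Of 15 tested partners of TCF and LEF, 6 had a value above 0 and the median was -0.06. Axin1, a scaffold of the complex that degrades beta-catenin, had the smallest p of these lists. It stood at 19.2, 25.9 and 22.7 FPKM across cKO 1 to 3, with 10.1, 7.79 and 3.95 FPKM across WT 1 to 3. The groups were well apart, with a log2 difference of 1.58 (limma, unadjusted p = 0.00179, adjusted p = 0.748). Tle1, a corepressor that TCF and LEF recruit, went the other way at 5.41, 1.34 and 4.81 against 6.10, 10.3 and 7.21 FPKM, a difference of -0.97 (limma, adjusted p = 0.925).

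Among genes listed as dependent on FOXO factors, 9 of 13 tested had differences below 0, and the groups overlapped for most of them. Of the 13, 3 had an unadjusted p under 0.05 downward and none upward, where 1.78% of all genes did so downward, and the median was -0.10. Ccr7, a chemokine receptor that guides T cells into lymph nodes, stood at 283, 303 and 368 FPKM across cKO 1 to 3, with 413, 529.5 and 447 FPKM across WT 1 to 3 (log2 difference -0.54; limma, adjusted p = 0.874). Pik3ip1, an inhibitor of PI3K, had a difference of -0.42 (limma, adjusted p = 0.915). The groups did not overlap for 3 of the 13, Ccr7 and Pik3ip1 among them, where 3.75% of all genes were lower without overlap, and those of Foxo1 itself overlapped. Il7r and S1pr1, a survival receptor and an exit receptor of the same list, differed by 0.12 and -0.10 with overlapping groups. The list of kinases and phosphatases that act on FOXO had a median of 0.02 over 8 genes, with 4 above 0 and no gene whose groups did not overlap.

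Other factors of the T cell state had a median of 0.10 over 14 tested genes, with 8 above 0 and no gene whose groups did not overlap. Ikzf1, which encodes Ikaros, stood at 70.5 ± 8.32 against 87.9 ± 10.6 FPKM (SD, n = 3 each; limma, adjusted p = 0.925). Factors of effector Treg, listed for contrast, had values above 0 in 11 of 11 tested genes, where 55.0% of all genes did, and a median of 0.28. Tested Treg (5 of 5), T cell (4 of 4) and B cell markers (4 of 4) were also above 0, with medians of 0.19, 0.14 and 0.16. Of the plasma cell markers, 3 of 4 were above 0. Among the effector factors, 3 had groups that did not overlap, where 6.96% of all genes did so upward. The 3 were Id2, Prdm1 and Rora. Prdm1, which encodes the effector factor Blimp1, stood at 8.13, 12.0 and 7.78 FPKM across cKO 1 to 3, with 5.19, 4.83 and 4.66 FPKM across WT 1 to 3, a log2 difference of 0.78 (limma, adjusted p = 0.863). The difference between the lists was not tested, and in bulk samples fewer cells of a type and less RNA per cell cannot be told apart.

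**Figure D5:**
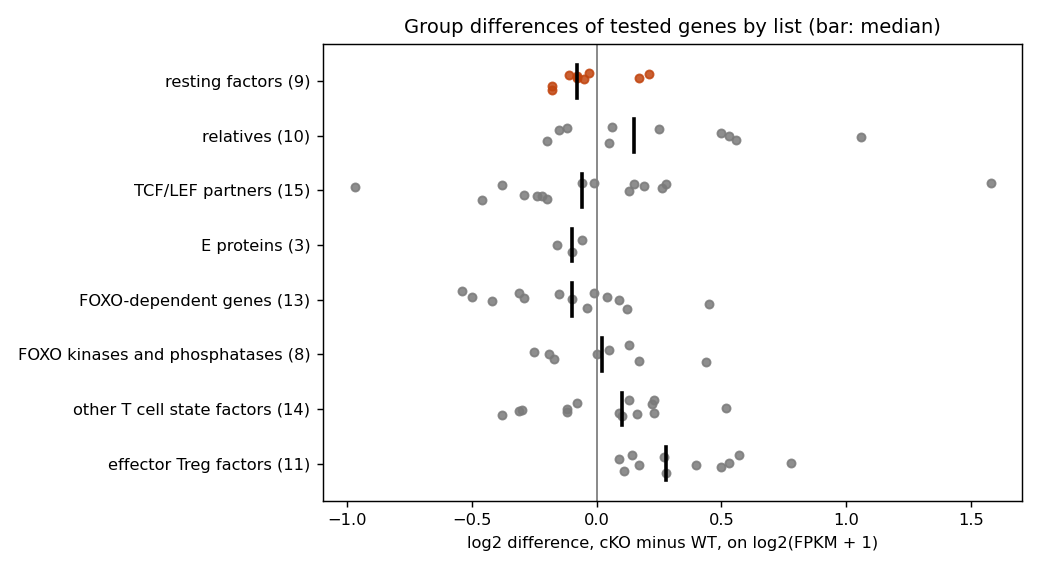
Log2 difference (cKO minus WT) of each tested gene by list, with the number tested in parentheses and a bar at the list's median; the 9 resting factors are in orange. The resting factors lie between -0.18 and 0.21, and the 11 effector Treg factors lie above 0 with a median of 0.28.

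Promoter sequences were searched because Bach2 and several of the factors bind short DNA motifs. RefSeq windows of 250 bases before to 50 after a start (GRCm38.p6) were found for all 9 genes, 19 windows in all. The motif TGANTCA of Bach and AP-1 factors (both strands) occurred in 0 of 19, and in 7.81% of all 32851 such windows. The FOXO motif GTAAACA occurred in 2 of 19, in windows of Tcf7 and Myb, just after the start, and in 3.65% of all. The TCF and LEF motif CTTTGA occurred in 2 of 19 and in 16.0% of all. These matches lie upstream of 1 of the 4 listed starts of Lef1 and 1 of the 3 of Foxp1, and are shown because LEF1 and TCF1 are themselves among the factors. Capitals mark the motif, which is read on the other strand in both.
Lef1, chr3:131156094-131156199, plus strand, 200 to 95 bases before the start: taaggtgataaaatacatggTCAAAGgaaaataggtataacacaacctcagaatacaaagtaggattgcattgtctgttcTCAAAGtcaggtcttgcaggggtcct
Foxp1, chr6:99266694-99266739, minus strand, 224 to 179 bases before the start: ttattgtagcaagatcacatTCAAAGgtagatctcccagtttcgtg
Lef1 has 2 such matches and Foxp1 has 1. A match of letters is not a site of binding, and no match says only that these letters are not in the window.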

How the data were processed

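Treg were enriched as CD4+ cells and sorted, and libraries were made with SmartSeq2, per the labels' protocols. FPKM values per gene and library were deposited by the authors, and cuffnorm is named in the table's title. FastQC, cutadapt and HISAT2 with the mouse builds NCBIM37 and mm9 are named in the submitters' processing notes, without versions. The annotation and the strand setting are not given in the sources used. Reporter-sorted Treg of high and low Bach2, which the design text names, were not analysed here.

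Symbols were found for 31840 of 36811 Ensembl rows in the reference tables. The 11979 genes whose mean reached 1 FPKM were tested by limma (version 3.58.1, R 4.3.3) after a log2(FPKM + 1) transform, using a variance trend without a replicate block, with Benjamini-Hochberg adjustment over all of them. Fragments were estimated from the steps of low values of genes with 1 transcript: 1011 of 2047 such genes (49.4%) gave whole multiples within 0.02 in every library, so no count test was run. For genes with several transcripts the fragments behind a value were bounded by the longest coding transcript in GENCODE M21 (GRCm38, a later build). SmartSeq2 does not mark strand, and Lef1, Satb1, Foxo1, Klf3 and Myb share exon bases with genes on the opposite strand there. The procedure was tested on simulated data with noise drawn independently for each gene and library, which holds no effect shared within a library. No result above rests on that run. Tables and figures were made in Python 3.11.15 (numpy 2.4.6, pandas 2.3.3, matplotlib 3.10.9).

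The 9 factors and the gene lists were chosen with earlier results of these data known. The naming rule took all 9 factors, Bach2, Foxp3 and Igfbp4 as checks, the genes of the ratios, and from each list any gene past the threshold or else up to 3 of lowest p, of which some are left unprinted and 1 is not reported here. Il7r and S1pr1 fall outside it and were chosen after their values were seen. Each result was recomputed leaving out each library, with a replicate block, with library quality weights, without the variance trend, after trimmed-mean, equal-sum or quantile scaling, with a minimum of 5 FPKM or no filter, and with a pseudocount of 0.1 or 5.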

Additional observations from a re-analysis of the deposited data

How the results depend on the processing

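No factor passed the threshold in any of the 16 alternatives (142 values, smallest adjusted p = 0.602 by limma), and with a minimum of 5 FPKM Foxo3 and Myb were not tested. Lef1 and Klf3 stayed below 0 and Foxo3 and Id3 above 0 in each, and 13 values of the other factors had the other sign. With equal sums Tcf7 was at 0.10, Satb1 at 0.08, Foxp1 at 0.13, Foxo1 at 0.04 and Myb at 0.04, and the median of the 9 at 0.08. With library quality weights Satb1 was at 0.09, Foxp1 at 0.00 and Myb at 0.24. Without 1 library Tcf7 ranged from -0.13 to 0.02, Satb1 from -0.22 to 0.13, Foxp1 from -0.10 to 0.08, Foxo1 from -0.22 to 0.03, Myb from -0.33 to 0.12, the median of the 9 from -0.13 to 0.03, and the difference in the ratio of Klf3 to Klf2 from -0.20 to 0.22. The number of factors with an interval within 1.5-fold, 7, became 4 without the variance trend and ranged from 2 to 5 without 1 library. It was 5 or 6 with the other scalings, 5 with the replicate block and 9 with a pseudocount of 5. Past the threshold lay 3 genes in all, 1 under the replicate block, and between 5 and 15 when a library was left out. The cause of these changes was not tested. Libraries of the same number did not deviate together (correlations of -0.06, -0.18 and -0.02 against up to 0.13 for other pairs), and the block brought no factor past the threshold. Foxo3 and Myb had the lowest bounds on estimated fragments of the 9, and the part of depth in the width of their intervals was not tested.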
